A study of Homo sapiens with 23 samples.

Results

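GATA2, TAL1, LMO2, KLF1, NFE2 and RUNX1 encode transcription regulators of the blood and erythroid lineages, and replication start sites and chromatin binding were compared at their loci between K562 and HCT116 cells. Each locus was defined as the hg19 span of the gene plus 10 kb on each side, and every deposited region that touched a locus was a member. The rule used no measured value. It gave 663 of the 1741457 regions in 21 lists, with 64 at GATA2, 77 at TAL1, 79 at LMO2, 37 at KLF1, 39 at NFE2 and 367 at RUNX1. The loci were 33.8 kb (GATA2), 36.0 kb (TAL1), 53.7 kb (LMO2), 22.8 kb (KLF1), 28.9 kb (NFE2) and 281.5 kb (RUNX1) long. No expression was measured, so whether either line transcribes these genes could not be checked against the data.

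K562 is a chronic myelogenous leukemia line and HCT116 a colon carcinoma line, both grown in the same kind of serum-supplemented medium. Start sites were mapped by sequencing nascent strands, short newly made DNA recovered by size and by its resistance to an exonuclease. K562 nascent strands came from early, middle and late S fractions. HCT116 nascent strands came from a SIRT1-depleted clone, from that depletion rescued with wild-type SIRT1 (wild-type rescue clone), from that depletion rescued with the T530A mutant of SIRT1 (T530A rescue clone), and from wild-type cells given 200 nM aphidicolin, an inhibitor of DNA polymerases, for 24 h and released for 24 h. None of the 4 HCT116 start-site lists is therefore from untreated wild-type cells, and the 2 lines differ in genotype, treatment and fractionation together. ChIP lists covered SIRT1 phosphorylated at T530 (pSIRT1; 5 elutriated K562 fractions, unfractionated K562 and wild-type HCT116), MCM2 phosphorylated at S139 (pMCM2; 5 K562 fractions and wild-type HCT116) and histone H4 acetylated at lysine 16 (H4K16ac; wild-type HCT116). Every group was 1 library, so the differences below are between libraries and carry no test and no p-value.

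Of the 663 regions, 75 were K562 start sites and 176 were HCT116 start sites. A further 121 came from the K562 pSIRT1 fractions, 42 from unfractionated K562 pSIRT1, 44 from HCT116 pSIRT1, 87 from the K562 pMCM2 fractions, 42 from HCT116 pMCM2 and 76 from H4K16ac. Over the whole genome the K562 start-site lists held 67803 to 81959 regions and 177.2 to 194.4 Mb, against 74479 to 109990 regions and 314.3 to 384.2 Mb in HCT116. The reads counted inside regions numbered 5870637 to 6810838 in the K562 lists and 13701955 to 20014274 in the HCT116 lists. Library depth itself is not given, and the part of this difference in the results was not tested.

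Replication of human chromosomes starts at origins that are licensed by loading the MCM helicase in G1 and are activated in S phase, and only some licensed origins are used in a given cell. SIRT1 is an NAD-dependent deacetylase that can remove the acetyl group of H4K16. GATA2 is a zinc-finger factor of haematopoietic stem and progenitor cells. TAL1, a basic helix-loop-helix factor, and LMO2, a LIM-domain bridging protein, act in one complex with GATA factors. KLF1 is the zinc-finger activator of adult β-globin, NFE2 is the p45 subunit of the NF-E2 factor that binds globin control regions, and RUNX1 is the DNA-binding subunit of core binding factor, needed for definitive haematopoiesis.

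The sequences just upstream of the starts of GATA2, TAL1 and KLF1 are shown. At these 3 loci every K562 list was below every HCT116 list in start-site coverage scaled to the genome mean. These sequences were also reached by start-site regions in HCT116 lists and in no K562 list. They are the 250 bases before the gene start from RefSeq (GRCh38.p14, minus strand, written 5′ to 3′ in gene direction), at chr3:128493202-128493451, chr1:47232336-47232585 and chr19:12887202-12887451. Capitals mark the letters GATAA on either strand, a form of the sequence that GATA factors read. Other forms of it are not marked or counted.
GATA2: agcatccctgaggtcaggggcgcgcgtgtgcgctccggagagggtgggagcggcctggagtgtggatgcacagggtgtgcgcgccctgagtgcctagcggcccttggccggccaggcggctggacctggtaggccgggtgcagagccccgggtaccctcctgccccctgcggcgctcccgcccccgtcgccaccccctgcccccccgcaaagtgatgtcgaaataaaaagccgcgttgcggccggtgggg
TAL1: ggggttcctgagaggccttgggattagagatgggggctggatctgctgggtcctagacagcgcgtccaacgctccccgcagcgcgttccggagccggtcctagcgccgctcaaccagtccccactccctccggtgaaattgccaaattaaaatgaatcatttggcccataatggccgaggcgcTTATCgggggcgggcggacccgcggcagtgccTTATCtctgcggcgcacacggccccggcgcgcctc
KLF1: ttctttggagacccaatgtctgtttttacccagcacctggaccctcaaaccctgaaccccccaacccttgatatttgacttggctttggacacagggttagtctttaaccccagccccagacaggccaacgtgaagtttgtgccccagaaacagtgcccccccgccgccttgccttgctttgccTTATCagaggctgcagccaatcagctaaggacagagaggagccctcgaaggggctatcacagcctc
The GATA2 stretch held 0 matches, the TAL1 stretch 2, beginning 67 and 35 bases before the start (positions -67 and -35), and the KLF1 stretch 1, at position -66. GATAA or its reverse complement was present in 20.4% of the 35116 promoters in the same table, so a match is common and is given only as a description. The GC content was 72.8% (GATA2), 64.8% (TAL1) and 55.2% (KLF1), beside a median of 58.0% over all promoters of that table. RUNX1 also matched the table, with an entry 160603 bases inside the gene that is not shown, and LMO2 and NFE2 were the 2 genes without an entry. Second entries of GATA2 and TAL1, 4671 and 620 bases inside these genes and with 0 matches each, are not shown either. The gene start below is always the outer end of the gene span, and other starts inside a gene were not counted.

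No K562 start-site region covered the start of any of the 6 genes, while HCT116 regions covered each start in at least 2 of 4 lists. Counted over genes and lists, the start base was covered in 0 of 18 pairs in K562 and in 17 of 24 pairs in HCT116. As a background, the mean covered share of all genome windows as long as the GATA2 locus was 6.41, 6.57 and 7.04% in the K562 lists and 11.4 to 13.9% in the HCT116 lists, with no hg19 annotation at hand to give the same share over all gene starts. TAL1 and NFE2 starts were covered in 4 of 4 HCT116 lists, LMO2 in 3 and GATA2, KLF1 and RUNX1 in 2 each. Counting the whole 250 bases upstream of the hg19 start, K562 start sites covered them in 0 of 3 lists at GATA2, TAL1 and KLF1, against 1 of 4 HCT116 lists at GATA2, 4 of 4 at TAL1 and 2 of 4 at KLF1.

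The K562 pSIRT1 lists, in contrast with the K562 start-site lists, covered 5 of the 6 gene starts in at least 1 list. The start was covered in 2 of the 6 K562 pSIRT1 lists (5 fractions and unfractionated cells) at GATA2, TAL1, LMO2 and NFE2, in 1 of 6 at KLF1 and in 0 of 6 at RUNX1. HCT116 pSIRT1 covered 5 of the 6 starts, all but RUNX1. A K562 pMCM2 region covered a gene start in 1 of 30 pairs of list and gene, at NFE2 in early S, and the HCT116 pMCM2 list in 0 of 6. H4K16ac in HCT116 covered 4 of the 6 starts, those of GATA2, TAL1, LMO2 and KLF1. The mean covered share of all windows as long as the GATA2 locus was 0.831 to 9.31% in the K562 pSIRT1 lists and 10.1% in HCT116 pSIRT1. It was 1.73 to 4.78% in the K562 pMCM2 lists, 6.79% in HCT116 pMCM2 and 13.9% for H4K16ac.

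Start sites covered little of GATA2 in K562 and most of it in HCT116. The covered share of the locus was 0% in early S, 3.36% in middle S and 5.33% in late S of K562. In HCT116 it was 84.0% in SIRT1-depleted cells, 69.7% in the wild-type rescue, 61.5% in the T530A rescue and 76.9% after aphidicolin. The 2 sets of lists did not overlap, and the HCT116 lists were above 96.9 to 99.4% of all genome windows of that length. The low K562 values were common among such windows. Middle and late S were above 54.9 and 57.7% of them, and 45.9% of them had no coverage in early S. The K562 start sites were a region of 407 reads in middle S at chr3:128183601-128189400, which reaches into the downstream flank only in part, and late S regions of 37 reads at chr3:128201401-128202400, inside the gene, and of 59 reads at chr3:128214401-128215200, upstream of it. The HCT116 regions were long blocks, with 946 reads at chr3:128180801-128192400 and 943 reads at chr3:128194801-128213200 in SIRT1-depleted cells. All 3 K562 regions lay on bases that at least 1 HCT116 list covered as well.

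TAL1 showed the same arrangement. Its covered share was 0% in early S, 7.21% in middle S and 0% in late S of K562. In HCT116 it was 74.9% in SIRT1-depleted cells, 75.5% in the wild-type rescue, 54.4% in the T530A rescue and 57.3% after aphidicolin. The HCT116 values were above 95.8 to 98.0% of all genome windows of that length. In K562, middle S was above 67.7% of windows, and 44.3 and 41.4% of windows had no coverage in early and late S. Only the middle S fraction of K562 had start sites here, with 143 reads at chr1:47689401-47691000, about 8 kb into the gene, and 42 reads at chr1:47704601-47705600, upstream of it. All 4 HCT116 lists covered a further 1800 bp over the gene start, chr1:47696801-47698600, by regions of 286 reads in SIRT1-depleted cells, 221 in the wild-type rescue, 121 in the T530A rescue and 285 after aphidicolin. That stretch held no K562 start site, although unfractionated K562 cells had a pSIRT1 region of 25 reads at chr1:47697001-47698400 within it.

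**Figure D1:**
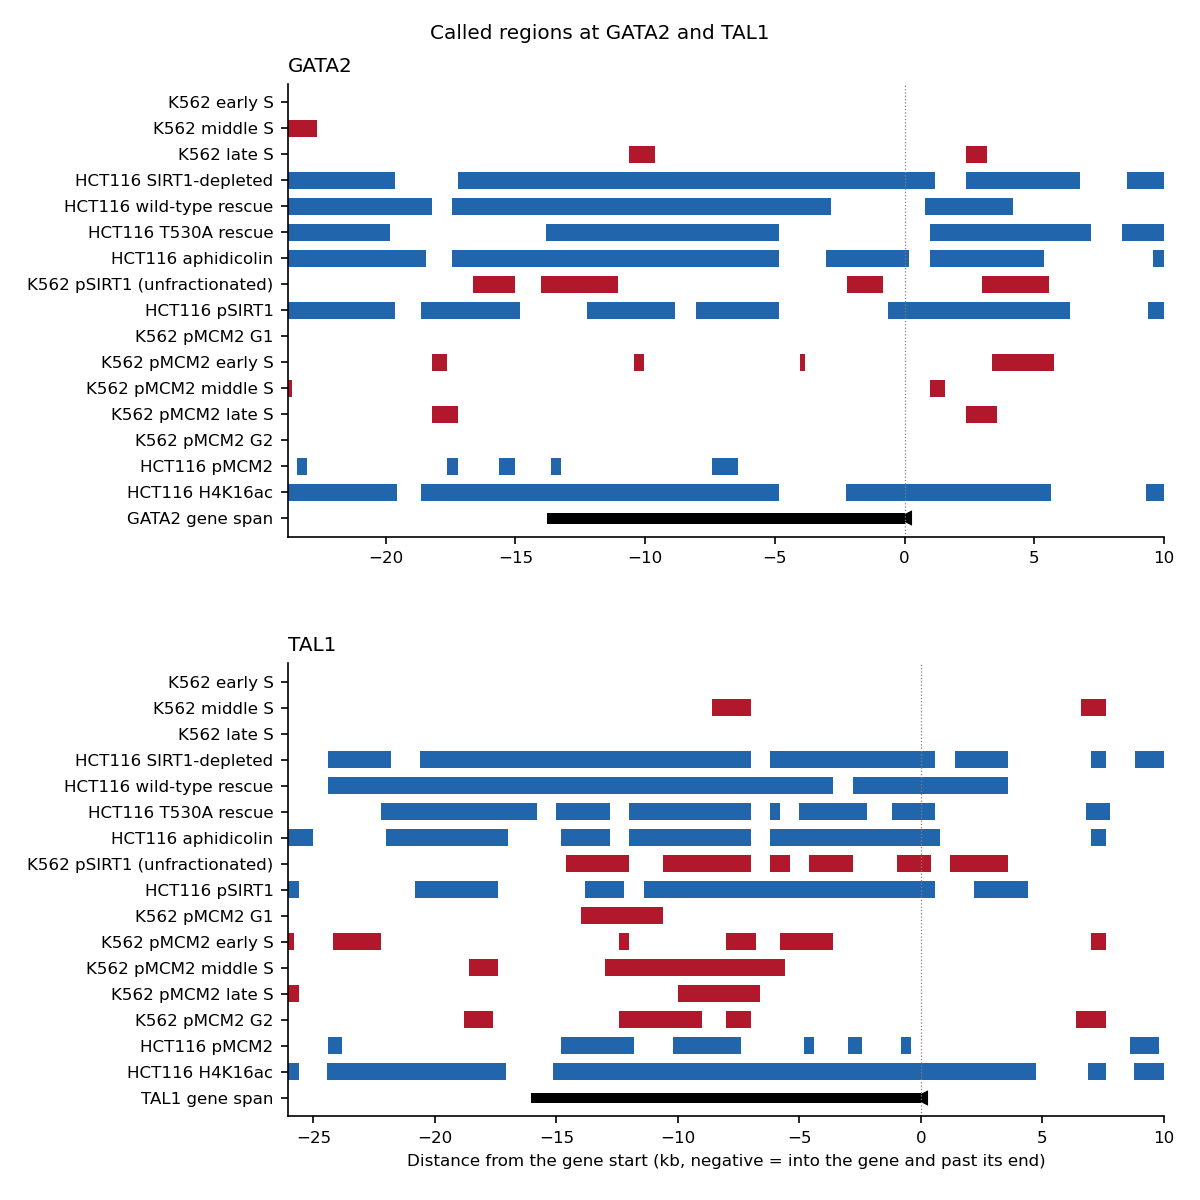
Regions of the start-site lists (7 top rows), the pSIRT1 lists of unfractionated K562 and of HCT116, the pMCM2 lists and H4K16ac along the GATA2 and TAL1 loci (horizontal axis, kb from the gene start, negative into the gene and past its end), with K562 lists in red above the HCT116 lists of the same assay in blue and the gene as a black bar. Each K562 start-site row holds at most 2 regions at each locus, while the 4 HCT116 rows are covered by 54.4% or more.

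KLF1, the shortest locus, had a start site in 1 of the 3 K562 lists. Its covered share was 4.39% in early S and 0% in middle and late S of K562. In HCT116 it was 30.7% in SIRT1-depleted cells, 23.8% in the wild-type rescue, 49.2% in the T530A rescue and 28.2% after aphidicolin. The HCT116 values were above 78.2 to 93.6% of all genome windows of that length. In K562, early S was above 59.3% of windows, and 56.9 and 51.1% of windows had no coverage in middle and late S. Divided by the mean covered share of chromosome 19, the locus was at 1.22, 1.22, 2.47 and 1.61 in these HCT116 lists. The K562 values on that scale were 0.686, 0 and 0. The K562 region, of 51 reads at chr19:12985801-12986800, lay downstream of the gene and met no HCT116 start site. The HCT116 regions lay over the gene and upstream of it, with 208 reads at chr19:12995001-12998800 in SIRT1-depleted cells and 328 reads at chr19:13001401-13009400 in the T530A rescue. All 4 HCT116 lists shared 400 bp at chr19:13002601-13003000 and 1800 bp at chr19:13006201-13008000, both upstream of the gene.

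NFE2 divided by position. Its covered share was 4.53% in early S, 0% in middle S and 13.5% in late S of K562, against 21.4% in SIRT1-depleted cells, 31.5% in the wild-type rescue, 22.5% in the T530A rescue and 17.0% after aphidicolin in HCT116. Downstream of the gene K562 met some of the HCT116 lists. K562 had 153 reads in early S at chr12:54673201-54677200 and 154 reads in late S at chr12:54672001-54677600. HCT116 had regions with the same borders as the early S one, with 168 reads in the T530A rescue and 173 reads after aphidicolin. Over the whole locus, 1 of 2 wild-type rescue regions and 0 of 2 SIRT1-depleted regions met a K562 start site. At the gene start the lines did not meet. All 4 HCT116 lists shared 2000 bp at chr12:54693001-54695000, in regions of 147, 127, 126 and 108 reads (SIRT1-depleted, wild-type rescue, T530A rescue, aphidicolin), and no K562 list had a start site there.

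LMO2 had start sites in every list of both lines, and no K562 list covered more of it than any HCT116 list. Its covered share was 21.6% in early S, 16.4% in middle S and 19.4% in late S of K562, and 21.6% in SIRT1-depleted cells, 48.5% in the wild-type rescue, 32.8% in the T530A rescue and 34.6% after aphidicolin in HCT116. LMO2 also held the only stretch at the 6 loci that all 3 K562 lists covered and no HCT116 list did, the 1800 bp at chr11:33896201-33898000, 15.8 to 17.6 kb into the gene. The K562 regions over it had 92 reads in early S, 81 in middle S and 129 in late S. At the start of LMO2 the order was the opposite one in 3 of the 4 HCT116 lists. Regions there had 140 reads in SIRT1-depleted HCT116, 126 in the wild-type rescue and 177 in the T530A rescue. No region covered that start after aphidicolin or in K562.

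**Figure D2:**
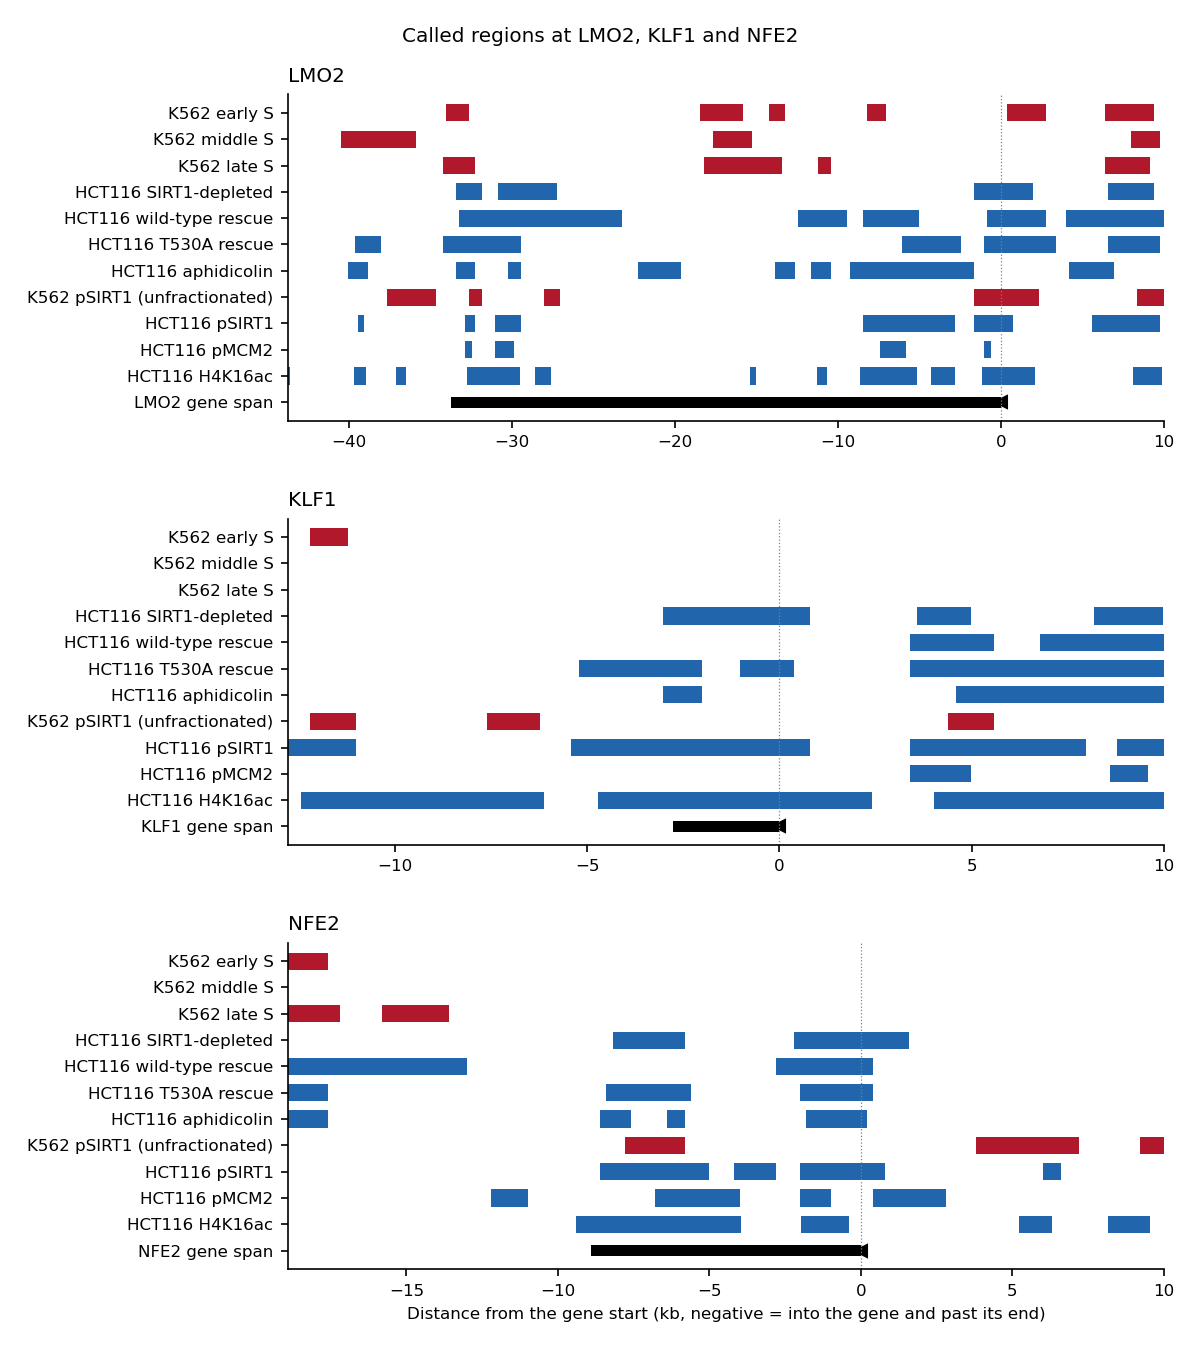
Regions of the start-site lists (7 top rows), the pSIRT1 lists of unfractionated K562 and of HCT116, HCT116 pMCM2 and HCT116 H4K16ac along the LMO2, KLF1 and NFE2 loci (horizontal axis, kb from the gene start, negative into the gene and past its end), with K562 lists in red above the HCT116 lists of the same assay in blue. LMO2 carries start sites in every K562 list, KLF1 in early S only and NFE2 in early and late S only, and no K562 start site lies on a gene start.

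RUNX1 was the only locus with bases that all 7 start-site lists covered. There were 5 such stretches, of 1.0 to 2.6 kb and 8.8 kb in all, and each lay inside the gene, at chr21:36168401-36170600, chr21:36187601-36189200, chr21:36267001-36269600, chr21:36295801-36296800 and chr21:36379801-36381200. Over the stretch of 2600 bp, K562 had regions of 179 reads in early S, 166 in middle S and 174 in late S, the highest of RUNX1 in middle and late S. The covered share of the locus was 12.1% in early S, 19.8% in middle S and 13.1% in late S of K562. In HCT116 it was 33.5% in SIRT1-depleted cells, 69.7% in the wild-type rescue, 74.4% in the T530A rescue and 18.5% after aphidicolin, so the 2 rescue clones stood apart from the other 2 lists. The largest regions were in the wild-type rescue, with 1450 reads at chr21:36173001-36203800 and 1128 reads at chr21:36317601-36348400.

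The high RUNX1 values of the rescue clones were shared by their whole chromosome. The mean covered share of chromosome 21, divided by that of all windows, was 0.889 in early S, 0.943 in middle S and 1.0 in late S of K562, and 1.45 in SIRT1-depleted cells, 2.44 in the wild-type rescue, 2.45 in the T530A rescue and 0.847 after aphidicolin in HCT116. Divided by its own chromosome, the RUNX1 locus was at 2.21, 3.30 and 1.92 in early, middle and late S of K562 and at 1.72, 2.20, 2.54 and 1.99 in the 4 HCT116 lists in the same order as before. On that scale the lines overlapped and the mean was higher in K562 by 0.362, while against all windows it was lower in K562 by 1.61 (difference of means, -1.61). Without the 2 rescue lists, a comparison chosen after seeing these values, the mean was also higher in K562, by 0.239. Copy number of chromosome 21 in these clones was not analysed here, and its part in the values was not tested.

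**Figure D3:**
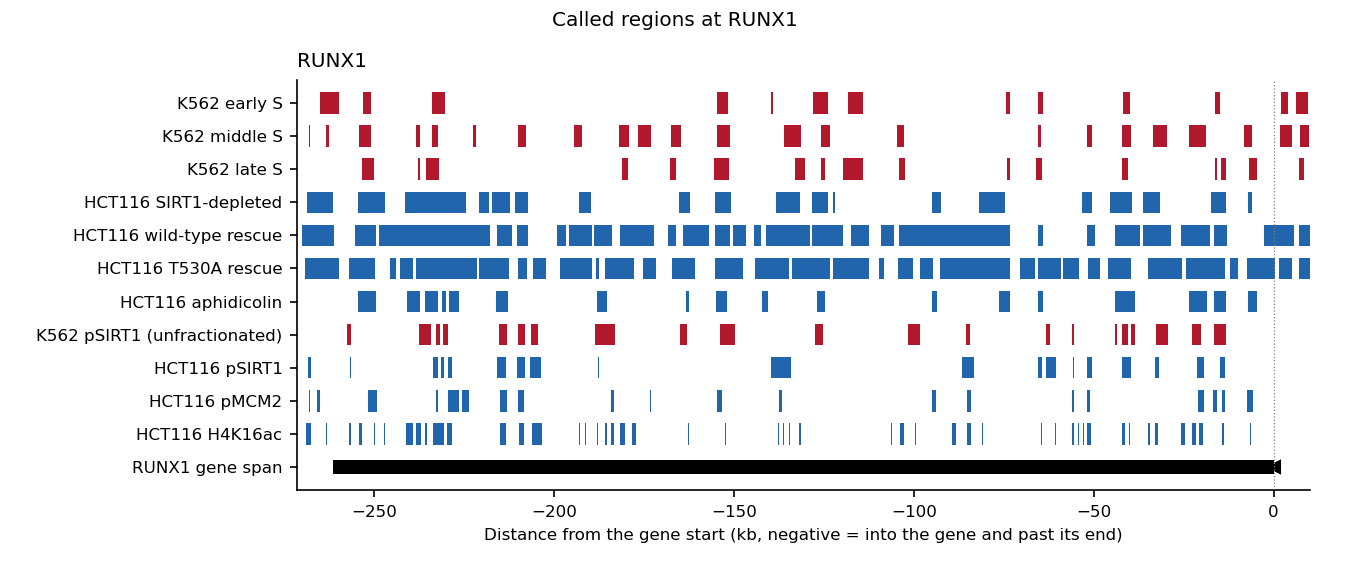
Regions of the start-site lists (7 top rows), the pSIRT1 lists of unfractionated K562 and of HCT116, HCT116 pMCM2 and HCT116 H4K16ac along the RUNX1 locus (horizontal axis, kb from the gene start, negative into the gene and past its end), with K562 lists in red above the HCT116 lists of the same assay in blue. The 2 rescue clones cover 69.7 and 74.4% of the locus, above the other start-site lists, which cover 12.1 to 33.5%.

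To set the lists on one scale, the covered share of a locus was divided by the mean covered share of all consecutive windows of its length on chromosomes 1 to 22 and X that held a region of any list (relative coverage, where 1 is the genome mean of that list). Relative coverage of GATA2 was 0 to 0.758 in K562 and 4.96 to 6.76 in HCT116. At TAL1 it was 0 to 1.10 in K562 and 4.40 to 5.63 in HCT116, and at KLF1 0 to 0.663 in K562 and 1.71 to 3.85 in HCT116. At these 3 loci every K562 list was below every HCT116 list, and the ratio of means, K562 over HCT116, was 0.0738 (GATA2), 0.0717 (TAL1) and 0.0876 (KLF1). NFE2 had a ratio of 0.487, with ranges of 0 to 1.90 in K562 and 1.48 to 2.32 in HCT116 that overlapped, although its unscaled shares (at most 13.5% in K562, at least 17.0% in HCT116) did not. LMO2 (2.54 to 3.44 in K562, 1.58 to 3.67 in HCT116, ratio 1.06) and RUNX1 (1.92 to 3.11 in K562, 1.69 to 6.21 in HCT116, ratio 0.592) overlapped as well. The near-equal means of LMO2 (2.93 in K562 and 2.76 in HCT116) hold only after this scaling, and the sign of their difference (0.16, K562 minus HCT116) turned to -0.54 without flanks, -0.14 with 50 kb flanks and -0.031 with the higher-scoring 50% of each list.

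Complete separation with HCT116 higher therefore held at 3 of the 6 loci, and with K562 higher at 0. Among all genome windows of matching length, HCT116 was higher in this sense in 13.2% (GATA2), 13.6% (TAL1), 15.7% (LMO2), 11.4% (KLF1), 12.5% (NFE2) and 24.6% (RUNX1), and K562 was higher in 14, 14.6, 17.5, 11.5, 13.2 and 29.8% in the same order. A ratio of means of 2-fold or more with HCT116 higher held at 4 loci, NFE2 being added, beside 34.0, 33.6, 32.1, 35.5, 34.6 and 27.1% of windows.

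The 3 separated loci were also the 3 that H4K16ac of HCT116 covered most. The covered share of H4K16ac was 78.7% at GATA2, 82.1% at TAL1 and 85.2% at KLF1, against 33.1% at NFE2, 31.1% at LMO2 and 13.6% at RUNX1. Among genome windows covered at least 50% by H4K16ac, a background chosen after seeing these values, HCT116 was completely above K562 in 62.6% at the length of GATA2, 64.5% at that of TAL1 and 55.6% at that of KLF1, while K562 was above HCT116 in 1.06, 1.0 and 1.38%. These windows were chosen by an HCT116 list, which 68.8 to 77.2% of the regions of each HCT116 start-site list met. The choice by itself favours HCT116, so no conclusion is drawn from these shares. H4K16ac was not mapped in K562, so the mark could not be compared between the lines.

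**Figure D4:**
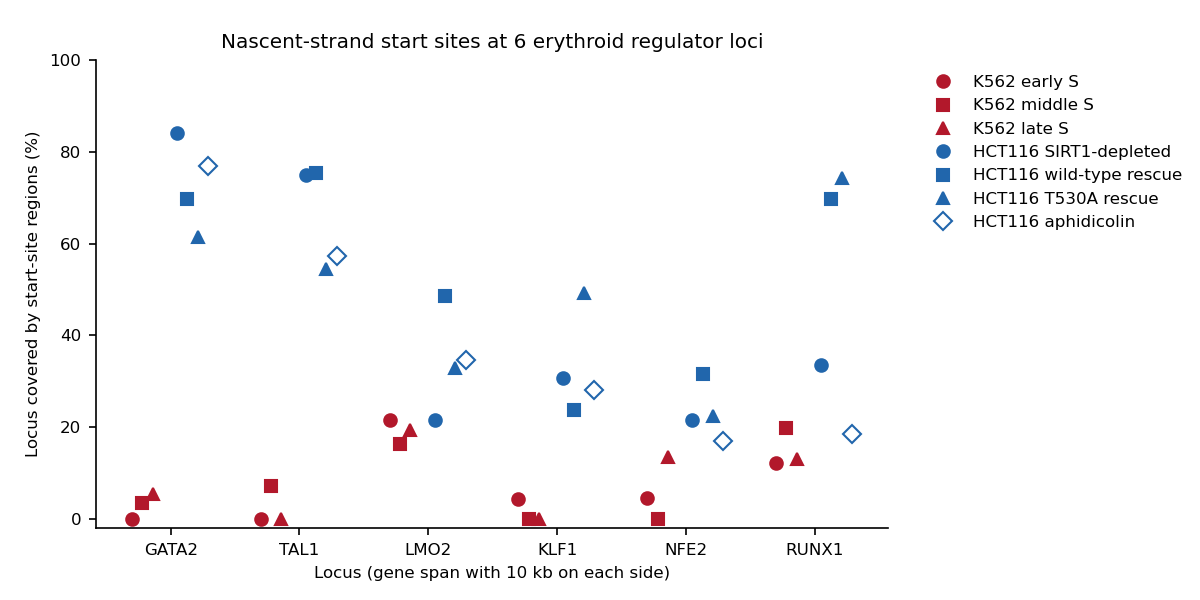
Share of each locus covered by start-site regions (%, vertical axis), with a point for each of the 3 K562 lists (red, left) and the 4 HCT116 lists (blue, right) of each gene, before scaling to the genome mean. At GATA2, TAL1 and KLF1 the K562 points lie between 0 and 7.21% and the HCT116 points between 23.8 and 84.0%, and at RUNX1 the lines overlap.

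Of the 75 K562 start sites at these loci 72 met an HCT116 start site, and RUNX1 held most of them. All 53 K562 regions at RUNX1 met one, against 19 of 22 at the other 5 loci. Of the 21 early S, 29 middle S and 25 late S regions, 19 (90.5%, exact 95% interval 69.6 to 98.8%), 28 (96.6%, 82.2 to 99.9%) and 25 (100%, 86.3 to 100%) shared at least 1 bp with a start site of any HCT116 list. Over all regions of these lists the shares were 67.2, 73.2 and 67.2%. The 3 K562 regions that met none were the KLF1 region named above and the early S and middle S regions over the K562-specific stretch of LMO2. Beside this, the HCT116 lists together covered 94.1% of GATA2, 86.7% of TAL1, 71.6% of LMO2, 55.4% of KLF1, 46.0% of NFE2 and 87.6% of RUNX1, and the part of that coverage in the sharing was not tested.

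In the other direction the shares were lower. K562 start sites were met by 22 of 38 regions of SIRT1-depleted cells (57.9%), 30 of 41 of the wild-type rescue (73.2%), 32 of 54 of the T530A rescue (59.3%) and 24 of 43 after aphidicolin (55.8%), against 43.6, 54.9, 49.6 and 50% over the whole lists. RUNX1 supplied most of the excess over the lists, with 68 of 96 HCT116 regions met (70.8%), while the other 5 loci gave 40 of 80 (50%), beside 49.0% over all regions of the 4 lists. At those 5 loci the counts were 8 of 19, 10 of 14, 10 of 22 and 12 of 25 in the same order of lists. Counted in bases, 90.5% of the K562 start-site bases at the loci lay in HCT116 regions and 27.4% of the HCT116 bases lay in K562 regions, beside 55.0 and 27.5% genome-wide. Stretches covered by 4 of 4 HCT116 lists and no K562 list numbered 31 and 45.0 kb, or 11.7% of all start-site bases at the loci against 6.23% genome-wide. They took up 35.5% of the GATA2 locus and 37.2% of the TAL1 locus. The bases of all 7 lists made up 2.29% at the loci and 1.59% genome-wide, and those of 3 of 3 K562 lists and no HCT116 list made up 0.468 and 1.28%.

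The median HCT116 start site at the loci was wider than its list median in 4 of 4 lists, and the K562 one in 2 of 3, with late S narrower. The median widths at the loci were 2200, 2400 and 1600 bp in early, middle and late S of K562, against list medians of 2000, 2200 and 2000 bp. In HCT116 they were 3700 bp in SIRT1-depleted cells, 6000 bp in the wild-type rescue, 4300 bp in the T530A rescue and 2800 bp after aphidicolin, against list medians of 2400, 3800, 2400 and 2400 bp. RUNX1 supplied 19 of 38, 27 of 41, 32 of 54 and 18 of 43 of these HCT116 regions. Every region that touched a locus was counted at full width, a rule that favours wide regions. The part of either in the widths was not tested. By reads, 3 of 21, 1 of 29 and 3 of 25 K562 regions were in the top 10% of their lists, against 6 of 38, 7 of 41, 22 of 54 and 6 of 43 in HCT116 in the same order. Of the 22 in the T530A rescue, 17 were at RUNX1, on the chromosome that was high in that clone, and 5 at the other loci.

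At GATA2, TAL1, KLF1 and NFE2 the ratio between the lines was nearer to 1 in pSIRT1 than in start sites. At LMO2 it was alike (0.952 in pSIRT1, 1.06 in start sites), and at RUNX1 it was 1.78 in pSIRT1, with K562 higher, and 0.592 in start sites, with HCT116 higher. The start-site ratio compared means of 3 K562 fractions and 4 HCT116 lists, none from untreated wild-type HCT116 cells. The pSIRT1 ratio compared 1 unfractionated K562 list with 1 wild-type HCT116 list, so assay and samples differ together. Unfractionated K562 pSIRT1 covered 25.5% of GATA2, against 65.6% in HCT116 (relative coverage 3.39 in K562 and 6.48 in HCT116). At TAL1 it covered 35.0% in K562 and 54.5% in HCT116 (4.67 and 5.40), and at KLF1 16.7% in K562 and 60.5% in HCT116 (2.15 and 5.79). KLF1 was the 1 locus past 2-fold, with a ratio of 0.372, beside 22.6% of windows of its length with HCT116 higher and 21.3% with K562 higher. At the lengths of GATA2, TAL1, LMO2, NFE2 and RUNX1 these shares were 23.4, 23.4, 24.1, 23.1 and 19.5% with HCT116 higher and 23.9, 24.3, 26.8, 22.9 and 30.4% with K562 higher. LMO2 had relative coverage of 2.64 in K562 and 2.77 in HCT116, NFE2 2.82 and 2.84, and RUNX1 2.21 and 1.24. TAL1, at 0.0717 of the HCT116 mean in start sites, was thus at 4.67 times the K562 genome mean in pSIRT1, above 95.4% of windows. Chromosome 1 as a whole was at 1.67 times the genome mean in that K562 list and at 1.22 in HCT116 pSIRT1. Divided by its own chromosome, TAL1 was at 2.80 in K562 and 4.42 in HCT116. The 2-fold calls moved with the settings, and without the flanks 3 loci were past 2-fold. The direction turned to K562 higher at TAL1 without flanks, with 50 kb flanks and by number of regions (differences of 0.13, 0.20 and 1.57), and it turned at LMO2 and NFE2 in some settings as well. Of the 42 unfractionated K562 pSIRT1 regions, 30 met an HCT116 pSIRT1 region (71.4%, beside 58.1% over the list), and 28 of the 44 HCT116 regions met a K562 one (63.6%, beside 43.8%).

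Across the K562 fractions pSIRT1 was found at TAL1 in all 5, with relative coverage of 8.0 in G1, of 10.1, 7.09 and 3.41 in early, middle and late S, and of 2.36 in G2. GATA2 had 4.46, 2.85, 6.66, 6.28 and 2.51 and KLF1 had 4.66, 1.02, 6.68, 6.57 and 11.3 in the same order of fractions. At these 3 loci every fraction was above its genome mean. Chromosome 19 as a whole was at 3.33 to 4.44 times the genome mean in these lists, and divided by its own chromosome KLF1 was at 1.35, 0.273, 1.51, 1.97 and 2.61, below that mean in early S. NFE2 had 4.30 in G1 and 1.54 in late S and no region in early S, middle S or G2. LMO2 had 1.59, 0.457, 0, 1.31 and 0.201 in that order, where the value of G2 came from 200 bp at chr11:33912801-33913000 that early S held as well. RUNX1 ranged from 0.836 in middle S to 3.10 in early S. The lists differ in length from 25542 to 120213 regions, with each fraction a library of its own, so fraction and library cannot be told apart.

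pMCM2 marked TAL1 in every fraction of K562. Its relative coverage there was 5.46 in G1, 10.3, 8.76 and 5.92 in early, middle and late S, and 3.96 in G2, against 3.69 in unsynchronised HCT116 cells. All 5 K562 lists were above the HCT116 list, which held in 3.49% of windows of that length (3.34, 4.75, 2.4, 2.9 and 12.3% at the lengths of GATA2, LMO2, KLF1, NFE2 and RUNX1, where the lines overlapped). Before scaling, the covered shares were 9.43, 18.4, 23.9, 10.7 and 18.9% in K562 and 25.0% in HCT116, so that the direction holds only after scaling to the covered length of each list. Without the flanks, with 50 kb flanks or by number of regions the separation was lost. KLF1 had a pMCM2 region in G1 only (2.36, against 1.63 in HCT116), and NFE2 in G1 (10.7) and early S (10.7) only, against 3.73 in HCT116. LMO2 had 7.88, 2.76, 1.95, 0 and 0.318 in order of the fractions, against 1.01 in HCT116. GATA2 had 0, 5.95, 0.797, 3.60 and 0 in the same order, against 1.22 in HCT116. The difference of means at GATA2 (0.85, K562 minus HCT116) turned to -1.43 with each list divided by the mean of chromosome 3, where HCT116 was at 4.13, and to -0.92 without flanks. RUNX1 had 1.70, 0.575, 3.12, 1.59 and 1.74, against 1.38 in HCT116. By the mean over fractions, K562 was higher by 2-fold at LMO2 (25.8% of windows of its length) and HCT116 at KLF1 (31.6% of windows).

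**Figure D5:**
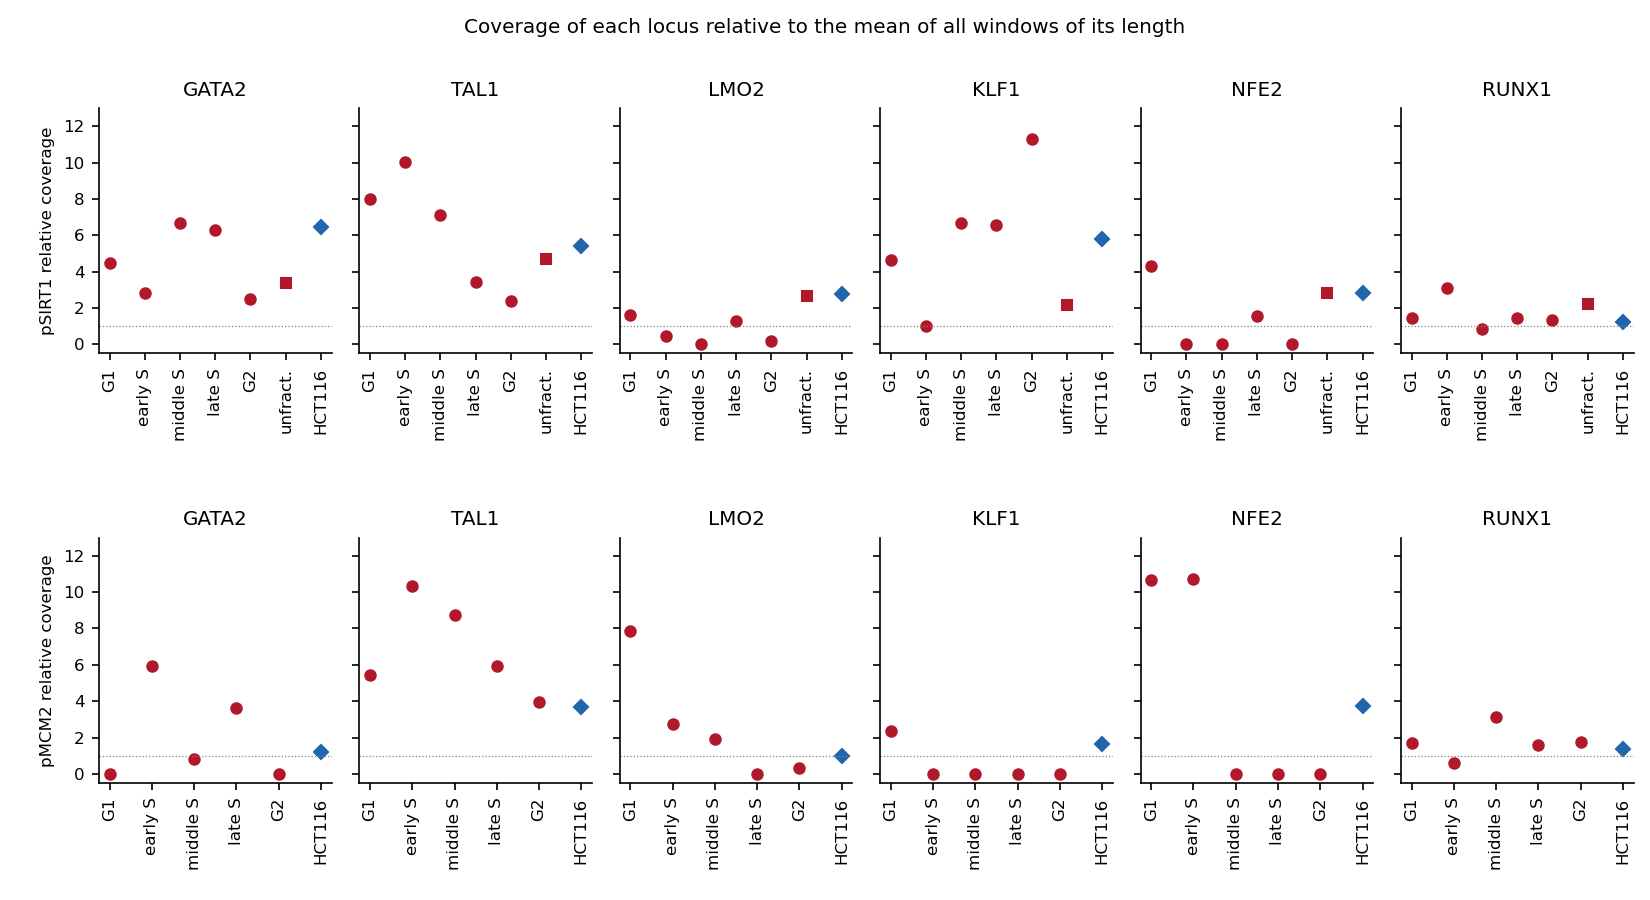
Relative coverage of each locus by pSIRT1 (top) and pMCM2 (bottom) in the K562 fractions from G1 through early, middle and late S to G2 (red circles), in unfractionated K562 cells for pSIRT1 (red square) and in HCT116 (blue diamond), with a dotted line at 1, the genome mean. TAL1 is above the line in every K562 list for both antibodies, while the pMCM2 values of LMO2 and NFE2 are highest in G1 or early S.

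Bases covered by at least 13 of the 14 ChIP lists were found at 2 of the loci, at places chosen after their values were seen, and amounted to 2316 stretches and 1844 kb genome-wide. At TAL1 this was chr1:47690001-47690400, 8 kb into the gene, inside the K562 middle S start site of 143 reads named above and inside regions of all 4 HCT116 start-site lists. It was missed by K562 pMCM2 of G1 alone. At RUNX1 it was chr21:36365801-36366183, 56 kb into the gene, where the K562 pSIRT1 regions had 497 reads in G1, 799 in early S and 397 in late S, above 99.5, 96.8 and 97.4% of their lists. The deposited score there was 134.2 in middle S and 2064.4 in G2, and HCT116 pMCM2 had 268 reads. These were the highest pSIRT1 values of RUNX1 in the 5 sorted fractions. Unfractionated K562 pSIRT1 had 36 reads there and up to 87 elsewhere at RUNX1, and HCT116 pSIRT1 had 47 there and up to 196 elsewhere. Among the 7 start-site lists the place was covered by the T530A rescue alone, with 164 reads.

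The shares of start sites and ChIP regions of the same line that met at the loci were below the whole-list share in 1 of 23 cases, K562 early S with pSIRT1 of any fraction, and above it in the others. In K562, 5 of 21 early S, 15 of 29 middle S and 9 of 25 late S start sites met pSIRT1 of any fraction (23.8, 51.7 and 36.0%), beside 36.0, 45.0 and 35.5% over the lists. Of the same start sites 8, 13 and 10 met pSIRT1 of unfractionated K562 cells (38.1, 44.8 and 40.0%), beside 23.8, 29.1 and 23.3%. For pMCM2 the counts were 10, 20 and 15 (47.6, 69.0 and 60.0%), beside 44.6, 53.6 and 44.7%. In HCT116, pSIRT1 was met by 25 of 38 start sites of SIRT1-depleted cells, 26 of 41 of the wild-type rescue, 36 of 54 of the T530A rescue and 29 of 43 after aphidicolin (65.8, 63.4, 66.7 and 67.4%), beside 62.7, 58.4, 53.1 and 51.5%. HCT116 pMCM2 was met by 25, 24, 30 and 22 of them (65.8, 58.5, 55.6 and 51.2%), beside 53.6, 54.0, 47.7 and 47.0%. H4K16ac was met by 34, 34, 46 and 36 of them (89.5, 82.9, 85.2 and 83.7%), beside 77.2, 73.8, 68.8 and 68.8%. RUNX1 alone differed for pSIRT1, which 9 of 19, 14 of 27, 16 of 32 and 9 of 18 HCT116 start sites met there. Each of these shares was below that of the whole list. The RUNX1 shares stayed above it for H4K16ac in every HCT116 list, and for pMCM2 in all but the wild-type rescue. In the other direction, a start site of the same line was met by 18 of the 42 unfractionated K562 pSIRT1 regions (42.9%, beside 33.4%) and 42 of the 44 HCT116 ones (95.5%, beside 84.0%). The exact 95% interval contained the whole-list share in 20 of the 23 cases. It lay above it in 3, H4K16ac with the T530A rescue (72.9 to 93.4%) and with aphidicolin (69.3 to 93.2%), and HCT116 pSIRT1 with start sites (84.5 to 99.4%). Regions of a list at one locus are not independent, so these intervals cover counting error only.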

How the data were processed

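Peak lists of 21 of the 23 samples were analysed, each group being 1 library, and the 2 sheared genomic DNA samples, controls for peak calling per the labels, were not analysed here. The submitters' processing notes name MACS, SICER and hg19, while aligner, versions and thresholds are not given in the sources used. No list names its columns. In 18 lists the authors deposited a whole number per region on a 200 bp grid, taken as a read count and not scaled between libraries. For K562 pSIRT1 in middle S and in G2 the authors deposited a decimal score instead. For H4K16ac the authors deposited a MACS-style table with a score, a fold column and −log10 columns of significance, of which only positions and score were used. Counts and scores are the authors' own values and only describe or rank regions within a list.

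The gene spans of the 6 loci were given on hg19 and 10 kb was added on each side. All 6 genes were taken to lie on the minus strand, so the gene start is the end of the span; the RefSeq table lists that strand for 4 of them and background knowledge gave it for LMO2 and NFE2. Overlapping or touching regions of a list were merged, and chromosomes 1 to 22 and X were kept. Lines were compared by complete separation of their lists (start sites, pMCM2) or by a 2-fold ratio (pSIRT1, and means), with the share of all genome windows that pass the same rule as background. Overlap meant at least 1 bp. Intervals are exact (Clopper-Pearson, 95%) and cover counting error only. Scripts were tested on simulated data and used Python 3.11.15, numpy 2.4.6, pandas 2.3.3, scipy 1.17.1 and matplotlib 3.10.9.

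All 6 loci are described. The regions named include regions with many reads, regions over gene starts, stretches shared by all lists of a line, and others. The HCT116 start-site regions with most reads at TAL1 (783 reads), LMO2 (295) and NFE2 (367), all in the wild-type rescue, are not named above. Neither is the K562 start-site region with most reads at RUNX1 (181 in early S). The loci, lists and rules were chosen with earlier results of these data known. Alternatives were no flank, a 50 kb flank, equal list lengths, the higher-scoring 50%, number of regions, merging within 1 kb, chromosome means and other overlap rules. Promoter sequences are from RefSeq on GRCh38.p14, matched by gene symbol (4 of 6 genes), and no coordinates were converted between builds.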

Additional observations from a re-analysis of the deposited data

How the results depend on the processing

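The start-site comparison kept its count within 1.5 times of 3 separated loci under every alternative run, with single loci changing: KLF1 lost the separation without flanks and TAL1 by number of regions, while NFE2 gained it without flanks and with the higher-scoring 50% of each list. The pSIRT1 count (1 locus with HCT116 higher by 2-fold, 0 with K562 higher) moved as follows: HCT116 was higher at 3 loci without flanks, at 2 with the higher-scoring 50% or equal list lengths, and at 0 with a 50 kb flank or by number of regions, and K562 was higher at 1 locus with a 50 kb flank or the higher-scoring 50%. For pMCM2 the separated locus (1, TAL1) became 0 without flanks and by number of regions, and with a 50 kb flank it was GATA2 in place of TAL1. The pMCM2 loci with HCT116 higher by 2-fold in means (1, KLF1) became 0 with a 50 kb flank, equal list lengths and number of regions. Without flanks the locus was GATA2 in place of KLF1, where the difference of means was 0. The pMCM2 loci with K562 higher by 2-fold in means (1, LMO2) became 4 with equal list lengths, 2 with merging within 1 kb, and 0 by number of regions and with the chromosome mean. The pooled share of K562 start sites found in HCT116 was 96.0%, and 88% against the wild-type rescue alone. The pooled share of HCT116 start sites found in K562 was 61.4%, and 43.2% against middle S alone and 47.7% with the higher-scoring 50%. With that same limit, K562 start sites with pSIRT1 made up 20.0% in place of 38.7%, K562 start sites with pMCM2 37.5% in place of 60.0%, and HCT116 start sites with pSIRT1 53.8% in place of 65.9%. The causes of these changes were not tested, apart from the shorter lists that the higher-scoring 50% makes by construction.

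The list of other regulator and epithelial loci was not run, since no hg19 annotation was used here. No paired analysis was possible because each group was 1 library and the results come from no test. Library depth is unknown, and the HCT116 start-site lists hold more reads than the K562 ones, so a locus without a K562 region had no region called at this depth and is not shown to lack start sites.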
